A study of Capra hircus with 30 samples.

Results

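The genes of the cytosolic ribosome and of translation elongation were examined in granulosa cells of goat ovarian follicles. They were taken from the deposited table by gene symbol, as the numbered ribosomal proteins of the large subunit (RPL) and the small subunit (RPS), RPSA, and the symbols starting with EEF1 or EEF2. Ribosomal S6 kinases, pseudogenes and paralogs with an added L, such as RPL7L1, were left out. The rule gave 81 genes among 20125 features, namely 39 proteins of the large subunit, 31 of the small subunit, 6 elongation factors and 5 genes that only carry such a name. RPL37A fits the rule and was not analysed here.

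The samples were 30 RNA libraries of ovarian granulosa cells of Ji'ning grey goats, in 6 groups of 5. Goats with large litters (high fertility) gave HLG from large, HMG from medium and HSG from small follicles. Goats with small litters (low fertility) gave LLG, LMG and LSG from the same 3 sizes. No agent or genetic change is named for any group, and the age of the animals is not given in the sources used here. Per the study's methods, follicles were collected from several goats of each fertility class, small numbers of granulosa cells from each follicle size made up a sample, and ribosomal RNA was removed before library preparation. According to these methods, the granulosa cells of each stage were divided into 5 samples, and the animals behind each library are not named. The p-values therefore measure only the spread between samples divided in this way. That spread may be technical and is not known to be a spread between goats. Libraries are named by group and by the number in their labels (5, 7, 8, 9 or 10), and values of the 5 libraries of a group are given in that order.

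Ribosomal proteins assemble with ribosomal RNA into the small subunit, which reads the messenger RNA, and the large subunit, which joins amino acids. Elongation factors bring charged transfer RNA to the ribosome and move the ribosome along the message. Messengers of both families begin with a pyrimidine tract through which the TOR kinase pathway sets their translation, and in growing cells they are among the most abundant messengers. Granulosa cells proliferate as the follicle grows and depend on this machinery.

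Values are FPKM, the number of fragments per kilobase of exon and per fixed number of mapped fragments, so that levels can be compared between genes. The libraries differed in how much of the transcriptome they held. A library had 301 to 9256 features above 0 FPKM, with a median of 5194. Read totals were not used here, so no counting intervals are given, and since a value of 0 may be a failed estimate, such genes are described only as listed at 0. The libraries HLG-5, HSG-5, LLG-5 and LLG-7 had 1974, 719, 875 and 301 features above 0. They are not among the libraries of the mapping statistics used here. Member medians and some single differences are also given without these 4 libraries. Most other results, such as group means and correlations, include them. Because these are bulk samples, fewer cells of a type and less RNA per cell cannot be told apart.

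The label of the tissue was checked against marker genes. Of 14 granulosa cell genes in the table, between 0 and 7 were above 0 in a library. A gene of this list was above 0 in a median of 5 libraries, equal to the median of all features. The median was 7.5 for the theca, 6 for the immune, 5 for the endothelial and 2 each for the oocyte and erythroid lists. GJA1 was the granulosa cell gene above 0 in the most libraries (18). CYP19A1, the aromatase that makes oestrogen, was above 0 in 10 libraries and INHBA, an activin and inhibin subunit, in 14. The FSH receptor FSHR was above 0 in 1 library, AMH in 1 and INHA in 2. The defining theca cell genes CYP17A1 and INSL3 were not analysed here, and the other theca list genes were above 0 in 7 to 12 libraries. Among genes of oocytes, 6 libraries held GDF9 above 0, 2 each held ZP3, DAZL and ZP2, and 1 held BMP15. The endothelial genes KDR and PECAM1 were above 0 in 14 and 6 libraries, CDH5, EMCN and TEK in 5 each, VWF in 4 and CLDN5 in 1. The immune cell genes CD14, PTPRC and CSF1R were above 0 in 8, 6 and 6, CD68 in 2 and CD3E in 1. The erythroid genes ALAS2, AHSP and SLC4A1 were above 0 in 5, 2 and 2.

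No ribosomal protein or elongation factor gene was above 0 in all 30 libraries. A member was above 0 in a median of 9 libraries, between 1 and 26, where the median of all features was 5. Of the 2430 member values, 777 (32.0%) were above 0, against 23.8% of the values of other protein-coding genes. There were 12 members (14.8%) above 0 in 15 or more libraries, a share near that of other protein-coding genes (13.5%). By contrast, 17 members (21.0%) were above 0 in 5 or fewer libraries, against 51.4% of other protein-coding genes. These shares are descriptions of the table and were not tested. For 35 of the 81 members, a single library held over 50% of the FPKM summed over the 30 libraries. Genes of this kind have many near-identical processed copies in mammalian genomes and only unique alignments were kept, so the values of single members are uncertain.

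**Figure D1:**
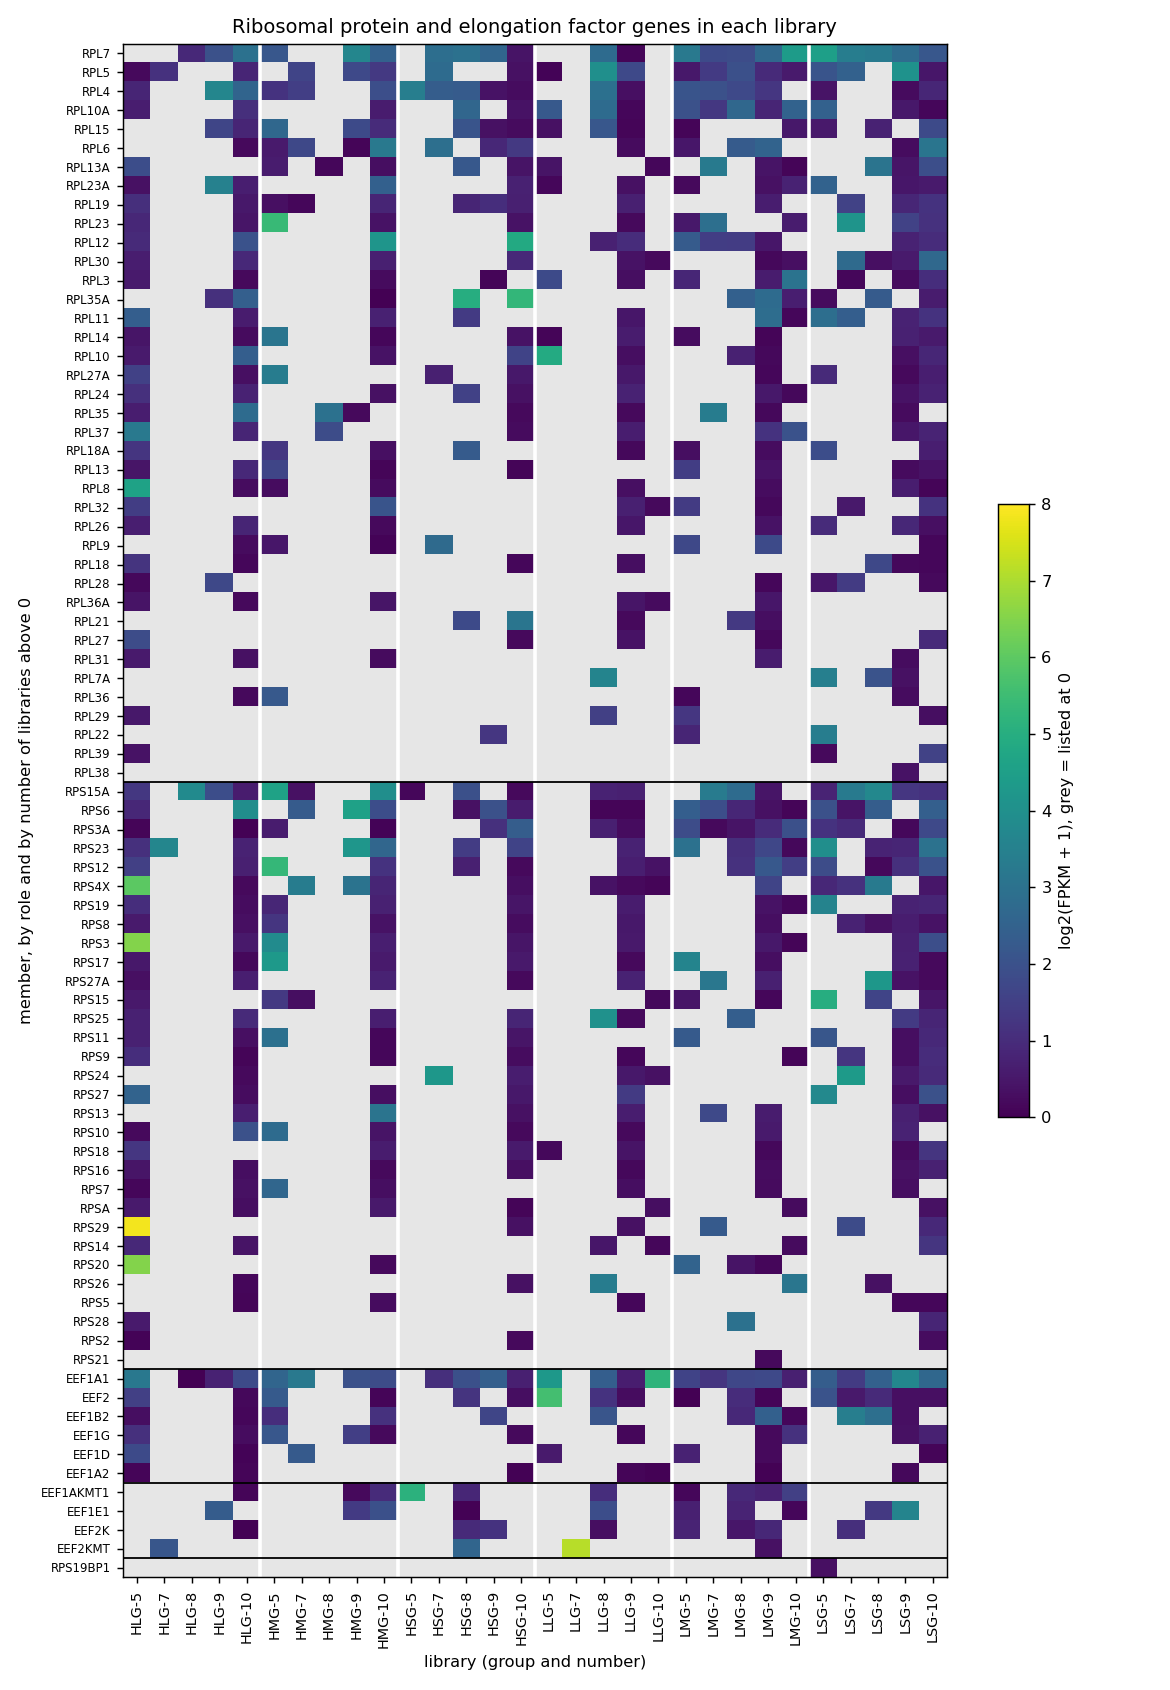
Each row is 1 of the 81 members, ordered by role and then by the number of libraries above 0, and each column is 1 of the 30 libraries in its group. Colour gives log2(FPKM + 1) and grey marks a value of 0. Filled columns at HLG-5, HLG-10, HMG-10, HSG-10, LLG-9, LMG-9, LSG-9 and LSG-10 hold 51 to 61 members, and the other columns 1 to 31.

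The number of members above 0 varied more between libraries of a group than between groups. It was 61, 3, 3, 9 and 60 in the HLG libraries, 29, 10, 3, 12 and 55 in HMG, and 3, 8, 21, 12 and 51 in HSG. It was 12, 1, 21, 53 and 12 in LLG, 31, 15, 23, 58 and 28 in LMG, and 28, 21, 20, 53 and 61 in LSG. All 6 groups overlapped, and each held at least 1 library with 51 or more members. These libraries were not spread evenly over the library numbers. They were number 10 of HLG, HMG, HSG and LSG, number 9 of LLG, LMG and LSG, and HLG-5. Libraries numbered 7 or 8 had at most 23 members (LMG-8). The labels do not say what the numbers stand for, and this recurrence was not tested. No library lay between 31 and 51 members, which left 8 libraries above and 22 below this gap. The mean number was 27.2 ± 30.5 in HLG, 21.8 ± 20.9 in HMG, 19.0 ± 19.1 in HSG and 19.8 ± 19.9 in LLG (mean ± SD, n = 5 libraries each). LMG had 31.0 ± 16.3 and LSG 36.6 ± 19.1 members (n = 5 each).

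The difference between high and low fertility was 7.4 members in large follicles, and -1.05 without HLG-5. It was -9.2 in medium follicles, between -17.5 without HMG-10 and -2.45 without LMG-9. In small follicles it was -17.6, between -25.6 without HSG-10 and -11.5 without LSG-10. All 3 were smaller than the pooled SD within groups, which was 25.7 members in large, 18.7 in medium and 19.1 in small follicles. Between sizes, large and medium follicles differed by -2.9 members (1.25 without HMG-10), large and small by -4.3 (-0.30 without HSG-10) and medium and small by -1.4 (2.6 without HSG-10). As a count over chosen members, this number was not tested.

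The number of members above 0 did not follow the number of all genes above 0 in every library. HLG-5 had 61 members (75.3%) but only 1792 protein-coding genes (9.99%). LLG-9 had 53 members (65.4%) and 2195 protein-coding genes (12.2%), and LSG-9 had 53 members and 3249 genes (18.1%). In contrast, LMG-8 had 23 members (28.4%) and 7611 genes (42.4%), and LMG-5 had 31 members (38.3%) and 7480 genes (41.7%). Among the 22 libraries below the gap, members and features above 0 gave a Spearman's rho of 0.77 and a Pearson's r of 0.76. Among the 8 above it rho was 0.20 and r 0.35. The gap was set on the number of members itself, and these 8 libraries span only 51 to 61 members. The values on each side of the gap therefore cannot be compared. These correlations are across libraries that share the same annotation, and are given as descriptions.

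**Figure D2:**
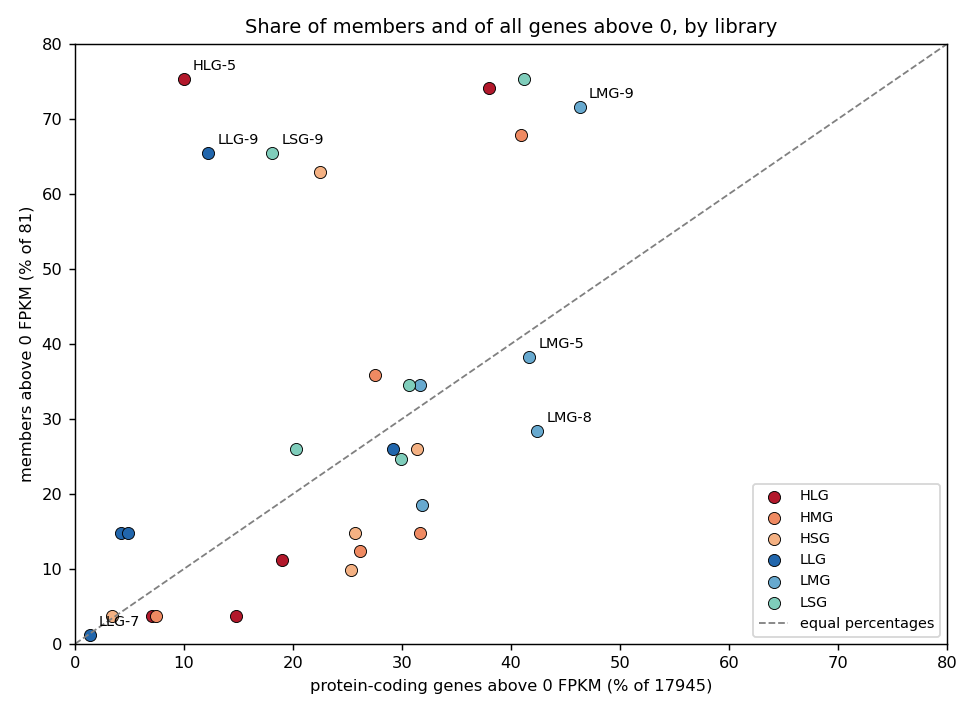
Each point is 1 of the 30 libraries, coloured by group, with the percentage of protein-coding genes above 0 FPKM on the x axis and the percentage of the 81 members above 0 FPKM on the y axis. The dashed line marks equal percentages. The points at 63.0% to 75.3% of members come from all 6 groups and spread from 9.99% to 46.3% of genes.

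Both subunits were read on each side of the gap. The gap was set on the number of members, most of which are subunit proteins. High counts of both subunits above it are therefore in large part set by that choice. The 8 libraries HLG-5, HLG-10, HMG-10, HSG-10, LLG-9, LMG-9, LSG-9 and LSG-10 had 29, 28, 26, 23, 27, 30, 27 and 31 of the 39 large subunit proteins. They had 26, 24, 23, 24, 22, 19, 20 and 26 of the 31 small subunit proteins. The other 22 libraries had at most 18 large subunit and 11 small subunit proteins. The counts of the 6 elongation factors overlapped, and so few genes cannot be set beside the subunits in this respect. In the same 8 libraries 6, 6, 4, 4, 4, 6, 5 and 4 of them were above 0, and in the others 0 to 4. RPS16, a small subunit protein, was above 0 in exactly these 8 libraries, at 0.37, 0.22, 0.14, 0.26, 0.13, 0.20, 0.29 and 0.66 FPKM in the order above. RPS16 was singled out after its values were seen.

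The median of the members above 0 was 0.78 FPKM in HLG-5, 0.28 in HLG-10, 0.49 in HMG-10 and 0.30 in HSG-10. It was 0.28 in LLG-9, 0.32 in LMG-9, 0.37 in LSG-9 and 0.79 in LSG-10. The other libraries spread over these values, from 0.155 FPKM in LLG-10, 0.415 in LLG-5 and 0.455 in LMG-10 to 9.78 in HSG-5 and, for its 1 member above 0, 140.93 in LLG-7. Protein-coding genes above 0 had a median of 0.10 FPKM in HLG-5 and 0.08 in LLG-9, below that of the members, and 0.44 in HLG-10, above it. In LLG-9, the highest of the 53 members was RPL5 at 2.43 FPKM.

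Other genes of translation were read in the same libraries. Of 35 initiation factors in the table, 16, 22, 18, 16, 18, 21, 16 and 23 were above 0 in the 8 libraries in the order above, and 0 to 18 in the others. Among the 22 libraries below the gap, the number of initiation factors and of members gave a rho of 0.81 (r 0.78), and among the 8 above it 0.53 (r 0.62). Since the gap was set on the number of members, these values cannot be compared either. Of 64 mitochondrial ribosomal proteins, which serve the separate ribosome of mitochondria, 2, 13, 15, 5, 6, 18, 5 and 14 were above 0 in the same 8 libraries. In the others 0 to 18 were, so the 8 libraries did not stand apart for this list. The theca list of 6 genes, mostly collagens and other matrix genes, had 1, 4, 6, 4, 4, 4, 4 and 1 genes above 0 there, and 0 to 3 in the other libraries. The summed FPKM of this list ranged from 0 to 1.38 in HLG, 0 to 4.37 in HMG, 0 to 2.55 in HSG, 0 to 2.81 in LLG, 0.37 to 2.50 in LMG and 0 to 1.93 in LSG. The 14 granulosa cell genes had 5, 6, 4, 4, 3, 6, 2 and 3 above 0 in the 8 libraries, and 0 to 7 in the others. The part of cell mixture, depth or RNA quality in the number of members was not tested.

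The summed FPKM of the 81 members differed between libraries. It was 565.46, 16.46, 14.20, 38.32 and 67.23 in HLG, 207.82, 32.08, 9.67, 71.08 and 94.18 in HMG, and 44.11, 48.49, 80.90, 21.05 and 97.91 in HSG. It was 102.20, 140.93, 90.28, 20.88 and 37.63 in LLG, 67.28, 62.24, 52.57, 57.56 and 55.41 in LMG, and 154.75, 92.90, 86.36, 68.33 and 81.24 in LSG. The LMG libraries lay closest together and the HLG libraries farthest apart, and the groups overlapped other than LMG and LSG, where each LSG library was above each LMG library. As a share of the FPKM of features with an NCBI gene number, the members took between 0.0445% in HMG-8 and 3.86% in HLG-5, with a median of 0.372%. Features with such a number held a median of 17858.4 FPKM per library, against 66757.4 for all features. Shares of all FPKM would therefore be lower.

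Single genes made up much of the high sums. In HLG-5, 4 small subunit proteins, RPS29 at 230.40, RPS3 at 90.32, RPS20 at 90.12 and RPS4X at 62.53 FPKM, together with RPL8 at 23.54 FPKM, were the members at 10 FPKM or more. In LLG-7, the sum was EEF2KMT alone, at 140.93 FPKM. In LLG-5, EEF2 at 47.51 FPKM took 46.5% of the sum, and in LLG-10, EEF1A1 at 35.84 FPKM took 95.2%. HMG-5 held RPL23 at 40.84 and RPS12 at 39.07 FPKM.

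**Figure D3:**
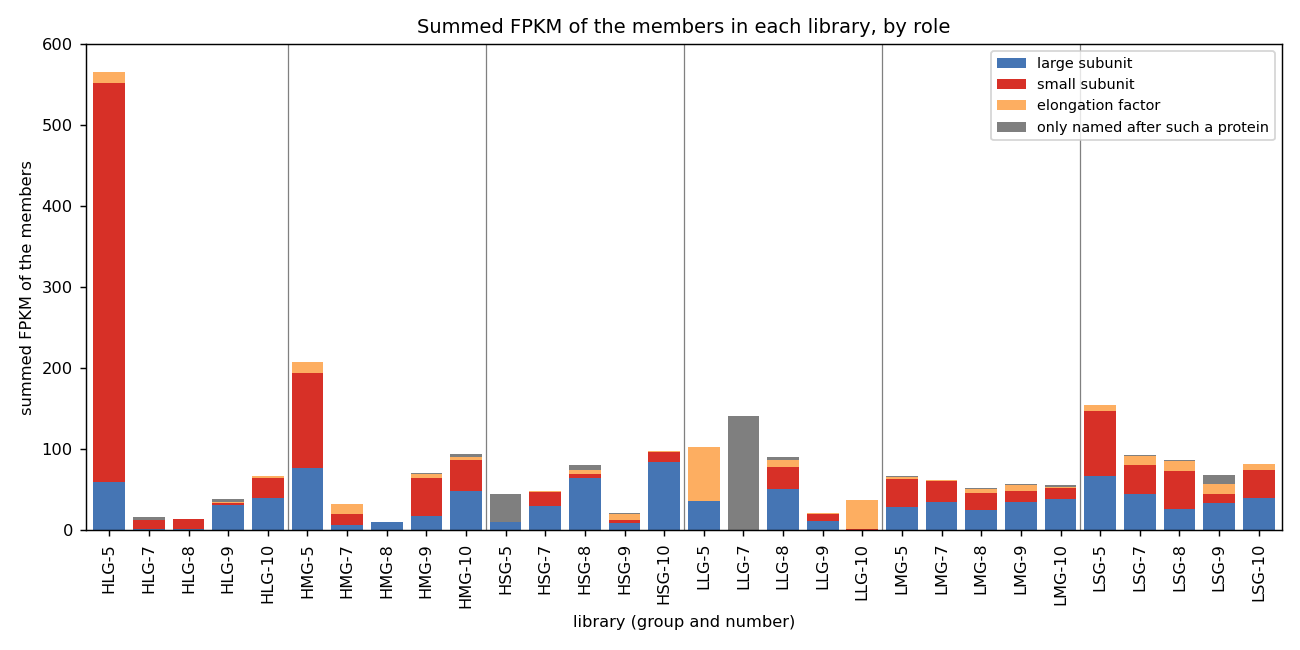
Bars give the summed FPKM of the 81 members in each of the 30 libraries, split by role, on a linear axis from 0. HLG-5 reaches 565.46 FPKM, of which the small subunit makes up 492.64, and the LMG libraries stay between 52.57 and 67.28. The grey bar of LLG-7 is EEF2KMT alone.

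The difference in summed FPKM between high and low fertility changed sign without a single library in large and medium follicles and over all sizes, and kept its sign in small follicles. In large follicles, HLG exceeded LLG by 61.95 FPKM, and without HLG-5 was lower by 44.3 (-44.3 FPKM). In medium follicles the difference was 23.95 FPKM, and -7.26 without HMG-5. In small follicles, HSG was below LSG in the mean (-38.2 FPKM), between -48.1 without HSG-10 and -23.7 without LSG-5. The pooled SD within groups was 172.2 FPKM in large, 54.7 in medium and 32.2 in small follicles, and of these 3 differences only that in small follicles exceeded it. Over all sizes the difference was 15.9 FPKM, and -19.5 without HLG-5. Between sizes, large exceeded medium by 38.4 FPKM (-14.8 without HLG-5) and small by 31.8 (-21.4 without HLG-5), and medium and small differed by -6.6 (2.5 without HMG-8). These differences are descriptions and were not tested.

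Among the large subunit proteins, RPL7 was above 0 in the most libraries (22). Its values were 0, 0, 0.88, 2.98 and 6.92 FPKM in HLG, 3.51, 0, 0, 11.88 and 4.64 in HMG, and 0, 6.49, 6.93, 5.13 and 0.35 in HSG. They were 0, 0, 5.98, 0.09 and 0 in LLG, 8.44, 2.45, 2.62, 5.55 and 19.87 in LMG, and 21.91, 9.43, 8.60, 6.04 and 3.46 in LSG. All 10 LMG and LSG libraries were above 0, while 3 of 5 LLG libraries were listed at 0.

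RPL4, whose protein lines part of the exit tunnel, was above 0 in 20 libraries, with its highest value of 11.71 FPKM in HLG-9. It was above 0 in all 5 HSG libraries, at 9.78, 4.15, 3.87, 0.30 and 0.20 FPKM. RPL5, which together with RPL11 can bind the p53 regulator MDM2 when ribosome assembly is disturbed, was also above 0 in 20 libraries, up to 15.85 FPKM in LSG-9. RPL11 itself was above 0 in 11, up to 6.37 FPKM in LSG-5. RPL15 was above 0 in 16 libraries, up to 5.37 FPKM in HMG-5.

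RPL10A, which sits near the stalk where used transfer RNA leaves, was above 0 in 16 libraries. Its values were 0.56, 0, 0, 0 and 1.09 FPKM in HLG, 0, 0, 0, 0 and 0.52 in HMG, and 0, 0, 5.28, 0 and 0.30 in HSG. They were 3.66, 0, 5.93, 0.10 and 0 in LLG, 2.99, 1.46, 5.32, 0.77 and 4.75 in LMG, and 4.63, 0, 0, 0.44 and 0.10 in LSG. Every LMG library was above every HMG library, and the other pairs of groups at 1 size overlapped. The margin was small, at 0.77 in LMG-9 against 0.52 in HMG-10. How many of all features separated in this way was not counted.

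RPL35A had the highest mean among the large subunit proteins after RPL7, from 30.74 FPKM in HSG-8 and 38.52 in HSG-10, while 19 libraries were listed at 0. The fewest libraries among the large subunit proteins had RPL38, which was above 0 in LSG-9 alone, at 0.30 FPKM. RPL22 and RPL39 were above 0 in 3 libraries each. RPL7A, RPL29 and RPL36 were each above 0 in 4.

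Among the small subunit proteins, RPS15A was above 0 in the most libraries (20), up to 23.25 FPKM in HMG-5. In LSG it was above 0 in every library, at 0.73, 8.73, 12.21, 1.39 and 1.27 FPKM. RPS6, the protein phosphorylated by the S6 kinases of the TOR pathway, was above 0 in 19 libraries, up to 22.98 FPKM in HMG-9. Its LMG values were 4.27, 2.82, 0.82, 0.28 and 0.07 FPKM, and in LLG it was at most 0.09. RPS3A was above 0 in 17 libraries, at no more than 4.12 FPKM (HSG-10). RPS23, which lies at the decoding centre, was above 0 in 16, up to 17.40 FPKM in HMG-9. RPS12 was above 0 in 15.

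Of the 5 small subunit proteins with the highest means, 4 had most of their summed FPKM in HLG-5. RPS29 had 96.7% of its summed FPKM there and was above 0 in 5 further libraries, at 0.29 to 3.76 FPKM. RPS20 had 94.2% there, RPS3, which lies at the messenger entry channel, 82.4%, and RPS4X, encoded on the X chromosome, 66.6%. The other of the 5, RPS15A, had 1.48 FPKM in HLG-5 and 23.2% of its sum in HMG-5. RPS3 was at 0, 0, 0 and 0.47 FPKM in the other 4 HLG libraries and at 0, 0, 0, 0.47 and 0 in LLG. RPS21 was above 0 only in LMG-9, at 0.15 FPKM, and RPS2 in 3 libraries at no more than 0.21. RPS19BP1, a regulator of a deacetylase named for its binding to RPS19, was above 0 only in LSG-5, at 0.26 FPKM.

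Of the elongation factors, EEF1A1, which delivers aminoacyl-tRNA to the ribosome, was above 0 in 26 libraries, the most of any member. Its values were 8.14, 0, 0.01, 0.69 and 2.46 FPKM in HLG, 5.16, 8.36, 0, 2.94 and 2.65 in HMG, and 0, 1.12, 2.85, 4.41 and 0.63 in HSG. They were 18.34, 0, 4.21, 0.57 and 35.84 in LLG, 2.08, 1.36, 2.23, 2.37 and 0.63 in LMG, and 4.09, 1.61, 4.62, 11.90 and 5.39 in LSG. All groups overlapped, and of the LSG libraries only LSG-7 (1.61 FPKM) fell within the LMG range. EEF1A2, the form that replaces it in muscle and nerve, was above 0 in 7 libraries at no more than 0.13 FPKM.

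EEF2, which moves the ribosome along the messenger, was above 0 in 17 libraries. Its values were 1.86, 0, 0, 0 and 0.13 FPKM in HLG, 3.81, 0, 0, 0 and 0.09 in HMG, and 0, 0, 1.31, 0 and 0.23 in HSG. They were 47.51, 0, 1.24, 0.21 and 0 in LLG, 0.02, 0, 1.03, 0.09 and 0 in LMG, and 3.11, 0.46, 0.95, 0.26 and 0.25 in LSG. LSG was the group in which EEF2 was above 0 in all 5 libraries, and LLG-5 alone held 75.9% of its summed FPKM.

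EEF1B2, EEF1G and EEF1D form the complex that recharges EEF1A with GTP. EEF1B2 was above 0 in 12 libraries, up to 9.64 FPKM in LSG-7, EEF1G in 11, up to 3.52 in HMG-5, and EEF1D in 7, up to 3.80 in HMG-7. All 3 were above 0 together in HLG-5, HLG-10 and LMG-9.

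The 4 genes that only carry the name of an elongation factor were seen in at most 10 libraries each. EEF1E1, a scaffold of the complex of tRNA synthetases, was above 0 in 10, EEF1AKMT1, which methylates EEF1A, in 10, the EEF2 kinase EEF2K in 8 and the EEF2 methyltransferase EEF2KMT in 4. In HLG-5, which had 61 members above 0, all 4 were listed at 0. EEF1AKMT1 was at 34.23 FPKM in HSG-5, which was 77.6% of the summed FPKM of that library's members.

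**Figure D4:**
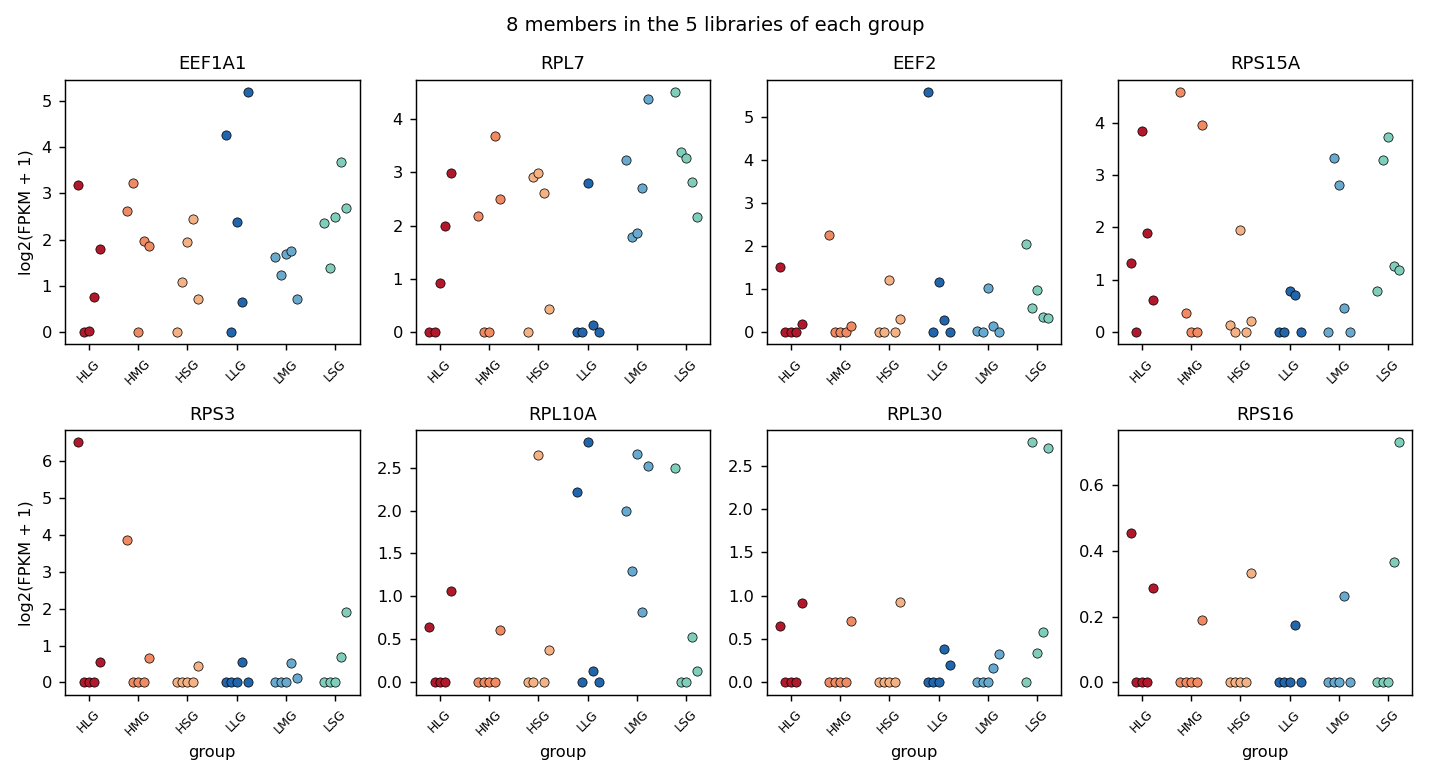
Each panel shows 1 member, with log2(FPKM + 1) on the y axis and the 5 libraries of each group as points in the order of their numbers. RPS3 stands out in HLG-5, EEF2 in LLG-5, and RPL10A lies above 0 in all 5 LMG libraries and in 1 HMG library. RPS16 is above 0 in 8 libraries, at no more than 0.66 FPKM. The y axes differ between panels.

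Whether members differed between the fertility classes or follicle sizes was tested with limma on log2(FPKM + 1), fitted over the 6058 features with more than 0.5 FPKM in at least 5 libraries. Of the 81 members 40 (49.4%) passed this filter, and the other 41 were not tested. A difference is given on the log2(FPKM + 1) scale, which understates changes of low values, with its standard error, and adjusted p-values are limma's after Benjamini-Hochberg adjustment over all features tested. At an adjusted p under 0.05, 0 of the 40 members were called in each of the 8 comparisons (0% of all features in 7 of them and 0.0165%, which is 1 feature, between medium and small follicles). Fisher's exact test of presence above 0, run over all 20125 features, also called 0 members and 0% of features after adjustment in the 7 comparisons of groups. By that test 1 of the 81 members had an unadjusted p under 0.05 in medium follicles, where 299 of the 20125 features did. Between medium and small follicles 1 member did, against 197 features. In the other 5 comparisons 0 members did, against 61 features in large and 126 in small follicles and 171 over all sizes. Between large and medium follicles 1241 features did, and between large and small follicles 335.

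In large follicles, 0 of 40 members had an unadjusted limma p under 0.05 in HLG against LLG, where 4.8% of all features did. The lowest p was that of RPS3, with a difference of 1.30 ± 0.75 (SE, adjusted p = 0.976), which was 0.03 without HLG-5. EEF1A1 was at -1.35 ± 0.83 (adjusted p = 0.976), which was -0.68 without LLG-10, -0.84 with library weights and -2.10 without the 4 libraries missing from the mapping statistics. The library weights were highest in LLG-7 (7.06), LLG-10 (3.21) and LLG-5 (2.85), with 301, 988 and 875 features above 0. LLG-8, with 5843, had a weight of 0.557. Weighting therefore did not reduce the part of libraries with few features in LLG. EEF2 was at -1.07 ± 0.66 (adjusted p = 0.976), which was -0.021 without LLG-5 and -0.44 without the 4 libraries. The median difference of the 40 members was 0.21, against 0.10 for all features tested, with 27 above and 13 below 0. Signs over all features were not counted in any contrast, so such counts of members have no background beside them. Without those 4 libraries it was -0.08, over 31 members.

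In medium follicles, HMG against LMG, 3 members had an unadjusted p under 0.05, where 5.15% of all features did, and all 3 differences were negative. RPL10A differed by -1.74 ± 0.60 (unadjusted p = 0.00598, adjusted p = 0.657), RPL3 by -0.86 ± 0.38 (-0.33 without LMG-10, adjusted p = 0.885) and RPS3A by -0.95 ± 0.45 (adjusted p = 0.928). RPL10A was above 0 in 1 HMG library and 5 LMG libraries, with an unadjusted p of 0.0476 in the two-sided Fisher's exact test (adjusted 1). The median difference of the 40 members was 0.08, against -0.07 for all features, with 22 above and 18 below 0. With a pseudocount of 0.1 in place of 1 it turned to -0.18, with 15 above and 25 below 0, against -0.43 for all features.

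In small follicles, HSG against LSG, 4 members had an unadjusted p under 0.05, where 6.39% of all features did. RPL30 differed by -1.09 ± 0.40 (unadjusted p = 0.00894, adjusted p = 0.570), and by -0.72 without LSG-7. It was listed at 0 in 4 HSG libraries and at 0.90 FPKM in HSG-10, against 0, 5.81, 0.26, 0.50 and 5.51 in LSG. RPS19 was at -0.94 ± 0.40 (adjusted p = 0.706), which was -0.30 without LSG-5. RPL11 was at -1.17 ± 0.53 (adjusted p = 0.757). EEF1AKMT1 was at 1.20 ± 0.55 (adjusted p = 0.757), which was 0.22 without HSG-5. The median of the members was -0.39, against -0.09 for all features, with 32 of 40 below 0. The share of all features below 0 was not counted, so the 32 are not read as a result about the members. Members of a library are also not independent, and the mean number above 0 was 19.0 in HSG and 36.6 in LSG. The median with the features detected per library in the fit is not given here for this contrast.

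Over all sizes, 2 members had an unadjusted p under 0.05 between high and low fertility, where 3.95% of all features did. They were RPL10A at -0.82 ± 0.35 and RPL3 at -0.46 ± 0.22 (adjusted p = 0.952 each), the latter at -0.29 without LMG-10. The median of the members was -0.05, against -0.01 for all features, and -0.22 without the 4 libraries.

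Between large and medium follicles, 2 members had an unadjusted p under 0.05, where 11.5% of all features did, a higher share than among the members. RPL6 differed by -1.06 ± 0.44 (adjusted p = 0.390) and RPL7 by -1.35 ± 0.59 (adjusted p = 0.403). Once the features detected in each library entered the fit, RPL6 was at -0.13 and RPL7 at 0.039. The median of the members was -0.19, against -0.25 for all features. The large follicle groups held fewer features above 0 than the medium ones, at 3561 ± 2414 in HLG and 2091 ± 2242 in LLG against 5337 ± 2415 in HMG and 7774 ± 1325 in LMG (mean ± SD, n = 5 each). With that covariate the median of the members was 0.16 and that of all features 0.0022.

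Between large and small follicles, 2 members had an unadjusted p under 0.05, where 8.42% of all features did. RPL7 differed by -1.63 ± 0.59 (unadjusted p = 0.00848, adjusted p = 0.557), or -0.82 with the same covariate, and RPS3A by -0.64 ± 0.32 (adjusted p = 0.581). The median of the members was -0.28, against -0.19 for all features, and 0.0032 with that covariate. Between medium and small follicles, 1 member had an unadjusted p under 0.05, where 5.13% of all features did. It was RPL30, at -0.61 ± 0.28 (adjusted p = 0.934). RPS24, above 0 in 0 of 10 medium and 5 of 10 small follicle libraries, had an unadjusted p of 0.0325 in Fisher's exact test (adjusted 1). In the fertility by size interaction, 0 members had an unadjusted p under 0.05, where 4.67% of all features did, and the lowest was RPL30 (adjusted p = 0.895). The contrasts of sizes share libraries with each other and with those of fertility. Without the 4 libraries absent from the mapping statistics, the member median was 0.04 in medium and -0.53 in small follicles, -0.26 between large and medium, -0.35 between large and small and -0.04 between medium and small.

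**Figure D5:**
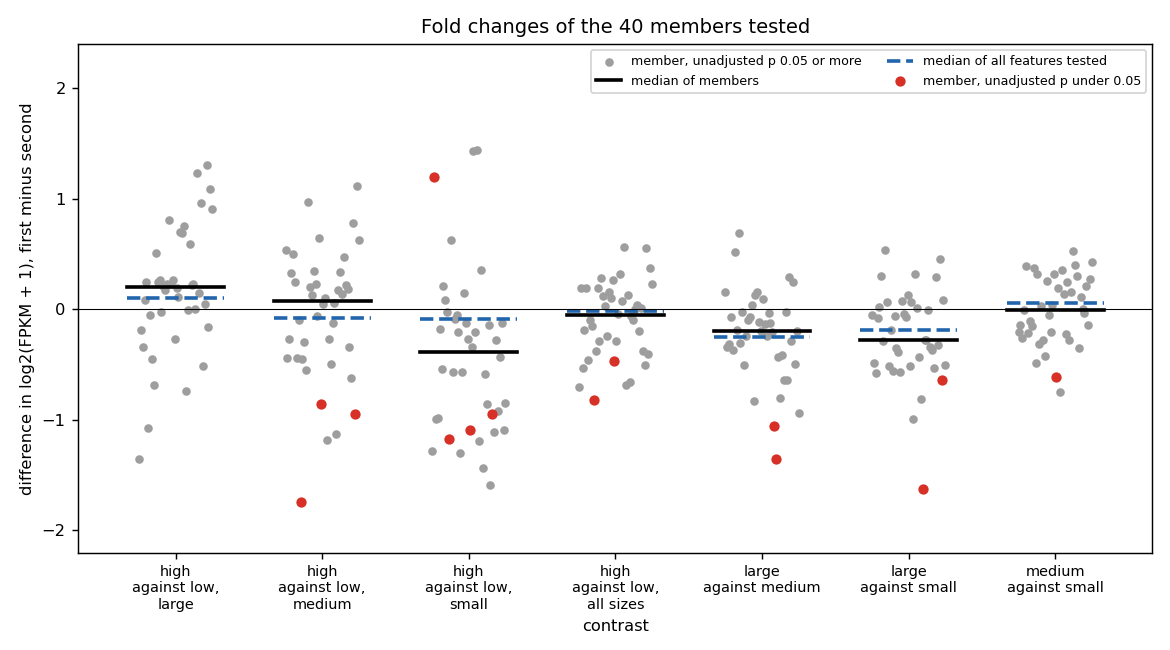
Points give the difference in log2(FPKM + 1), first group minus second, of the 40 members tested in 7 contrasts, red where the unadjusted limma p is under 0.05. Black lines mark the median of the members and dashed blue lines that of all 6058 features tested. The member median is lowest in small follicles (-0.39), and none of the points passed adjustment.

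The remaining genes of the pathway gave as few calls. Of the ribosomal proteins outside the naming rule, the stalk protein RPLP0 was above 0 in 13 libraries and RPLP1 in 9, the scaffold RACK1 in 14 and FAU in 6. Of the paralogs, RPL7L1 was above 0 in 13 libraries and RPL36AL in 7. Among the initiation factors EIF2S2 and EIF4B were above 0 in 19 libraries each, and among the termination and recycling factors HBS1L in 22 and ETF1 in 19. Among 33 ribosome biogenesis genes RIOK1 was above 0 in 18 and RRN3 in 16, and among the 64 mitochondrial ribosomal proteins MRPL32 in 17 and MRPL15 in 15. Of 20 cytosolic tRNA synthetases IARS was above 0 in 15 and YARS in 11, and of 15 genes of the TOR pathway EIF4EBP2 in 18 and PDPK1 in 16.

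With limma, 0 of the 46 genes of these lists that were tested were called in any of the 8 comparisons, and Fisher's exact test called 0 of all features. The number with an unadjusted limma p under 0.05 was 3 in large, 0 in medium and 2 in small follicles and 1 over all sizes. It was 6 between large and medium, 1 between large and small, 2 between medium and small follicles and 4 in the interaction. Of all features tested, 4.8% had such a p in large, 5.15% in medium and 6.39% in small follicles and 3.95% over all sizes. The share was 11.5% between large and medium, 8.42% between large and small, 5.13% between medium and small follicles and 4.67% in the interaction. In small follicles, 1 of 8 initiation factors tested had an unadjusted p under 0.05, the cap-binding protein EIF4E at -1.38 ± 0.47 (adjusted p = 0.510). In large follicles RPL7L1, at 1.03 ± 0.34, and RACK1, at -1.25 ± 0.60, had unadjusted p-values of 0.00402 and 0.0434 (adjusted p = 0.976 each), and RACK1 was at -0.32 without LLG-5. The median difference of the 8 initiation factors tested was 0.22 in large, 0.12 in medium and -0.49 in small follicles. These are the lists' own values, and the lists were not tested as sets.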

How the data were processed

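The authors deposited 1 table of FPKM values for 20125 features in 30 libraries. Per the study's methods, unique alignments to the goat genome were kept, duplicates removed with picard and FPKM computed with Cufflinks 2.2.1. The aligner and genome build are not given in the sources used here. The methods name an Ensembl annotation, but 17946 features carry NCBI gene numbers, of which 17945 had a symbol in the RefSeq table of assembly ARS1.2. No coordinates were used, and no sequences were at hand for the members.

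The members, gene lists and tests were chosen with earlier results of these data known. Features over 0.5 FPKM in at least 5 libraries were tested with limma 3.58.1 (R 4.3.3) on log2(FPKM + 1), all 6 groups in 1 fit, with a robust trended prior, Benjamini-Hochberg adjustment over all features, two-sided, threshold 0.05. Size contrasts were averaged over fertility. Presence above 0 was compared by two-sided Fisher's exact test (scipy 1.17.1, pandas 2.3.3, Python 3.11.15). Simulated data with known changes served to check the limma fit. They were drawn as normal values, so this check does not cover data with many values of 0 and single high libraries. Alternatives were a pseudocount of 0.1, no filter, rescaled totals, library weights, 2 groups in the fit, covariates, the replicate block, and leaving out libraries. Named were the 10 members with the highest mean, the 10 above 0 in most libraries, all elongation factors, the member with the lowest p in each contrast, and 2 genes of each list. Other members named, such as RPS16 and those at the lowest detection, were chosen after their values were seen. tRNA synthetases were matched by older symbols. Read totals were not used here.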

Additional observations from a re-analysis of the deposited data

Results flagged for a closer look

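A check of 23 sets of 5 libraries for a value far from its group found 3. For normally distributed values about 1 in 20 sets (1.15 of 23) would be flagged. The values checked were FPKM or counts, which are bounded at 0, so the 3 cannot be compared with that rate. The summed FPKM of the members was 565.46 in HLG-5, while the other HLG libraries lay between 14.2 and 67.23. It was 154.75 in LSG-5, against 68.33 to 92.9 in the other LSG libraries. EEF2 was at 3.11 FPKM in LSG-5, against 0.25 to 0.95 in the others.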

How the results depend on the processing

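Under every alternative run, limma called 0 members in each of the 8 comparisons, which includes leaving out each library in turn, the replicate block, a pseudocount of 0.1, no filter (78 members tested), rescaled totals, library weights, the fit without the 4 libraries and the covariates. The number of members above 0 as a covariate was chosen after seeing the data. Over all features tested, the deviations of same-numbered libraries had a median r of 0.01 over 75 pairs, with 1 above 0.1. For different numbers it was -0.0017 over 300 pairs, with 0 above 0.1. The highest r was 0.124 for the same and 0.052 for different numbers. With their own number, 7 of 30 libraries correlated best. The numbers were not taken to pair libraries in the main fit. The number of members above 0 did recur by library number. Number 10 in each high fertility group and number 9 in each low fertility group had 51 or more. This recurrence was not tested. With the replicate block, 0 members were called as well, and 2 instead of 0 had an unadjusted p under 0.05 in the interaction. RPL7 between large and medium follicles was at -1.35 and turned to 0.039 once the features detected per library entered the fit, and RPL6 went from -1.06 to -0.13. The median of the members in small follicles went from -0.39 to -1.14 with a pseudocount of 0.1, and in medium follicles from 0.08 to -0.18. In medium follicles the median of all features moved down as well, and in small follicles it is not given here for that pseudocount. Leaving out each library in turn, the difference in members above 0 ranged from -1.05 to 15.7 in large, -17.5 to -2.45 in medium and -25.6 to -11.5 in small follicles, and that in summed FPKM from -44.3 to 93.5, -7.26 to 42.3 and -48.1 to -23.7. Read totals were not used here, so a value of 0 was not told apart from a missed transcript, and values of genes with near-identical copies stay uncertain.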
